A study of Mus musculus with 2 samples.

Results

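The 33 genes described here encode plasma proteins, urea cycle enzymes and enzymes of amino acid breakdown and glucose output that are characteristic of liver, measured in mouse adipose tissue. They were taken as a list of gene symbols, and a probe set counted for a member only where the platform annotation gave that symbol alone. Of the 33, 31 had such a probe set, out of 18193 genes on the array, while Gc, the vitamin D carrier of plasma, and Sds, the serine dehydratase, were not analysed here. The list was drawn up with the values of these arrays known, and its members were chosen by the difference between these arrays, after liver transcripts had been seen among the lowest genes. Its direction is therefore a description and carries no test.

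The tissue came from C57BL/6 mice, an inbred laboratory strain, that received the high fat diet HFD32 or the control chow CE-2 between 6 and 18 weeks of age. RNA of 3 animals was pooled for each diet and hybridised to 1 Affymetrix array, so each difference below sets 1 pool against another, with no replicate check, no p-value and no SD between animals. The labels used here name neither the fat depot nor the sex of the animals. Values are log2 signals made by the authors with RMA, which corrects background, equalises the arrays and summarises the probes of a probe set. A difference is always high fat diet minus normal diet in log2 units, so -1 stands for a 2-fold lower signal on high fat diet. The only error at hand, the SD between probe sets of the same gene, was 0.27 on the log2 scale over 5131 genes, and it covers the probes alone. Background was read from 83 probe sets of odour, pheromone and bitter taste receptor genes. Their 95th percentile was 4.95 on the high fat diet array and 4.92 on the normal diet array, and a signal above it is called above background. Where the dimmer signal lay under it, the ratio was computed against the percentile and is written "at least".

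Hepatocytes make most of the proteins that circulate in plasma, and they alone run the whole urea cycle, which turns ammonia into urea. They are also the main site where tyrosine, tryptophan, methionine and glycine are broken down and where glucose is released into blood. Many of these genes are driven by a small set of liver-enriched transcription factors, among them HNF1, HNF4, C/EBP and FOXA proteins. Some of the enzymes are also made in kidney or intestine, and arginase 1 is made by macrophages.

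Among members with a promoter entry, those with the lowest and the smallest measured differences are shown, so that both kinds can be set side by side. Ass1 is among the latter, though its probe set lay under background on both arrays and gives no fold. Of the 33 members, 24 had an entry among the RefSeq promoters (GRCm38.p6), each running from 250 bases before the start site to 50 after it. Ttr is not printed and Cps1 and Cth are named only. The lines give Bhmt (chr13:93637709-93638008, minus strand), Pzp (chr6:128526671-128526970, minus strand) and Alb (chr5:90460620-90460919, plus strand), then Fah (chr7:84605893-84606192, minus strand), Adh4 (chr3:138415247-138415546, plus strand) and Ass1 (chr2:31470020-31470319, plus strand). Capitals mark matches on either strand to an HNF1, HNF4 or C/EBP motif, and no marked matches overlap.
Bhmt: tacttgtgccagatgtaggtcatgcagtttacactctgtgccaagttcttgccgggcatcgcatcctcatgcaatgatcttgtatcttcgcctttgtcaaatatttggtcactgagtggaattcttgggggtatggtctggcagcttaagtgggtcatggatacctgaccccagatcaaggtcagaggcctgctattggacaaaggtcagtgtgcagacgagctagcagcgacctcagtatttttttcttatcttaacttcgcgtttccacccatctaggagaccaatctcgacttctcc
Pzp: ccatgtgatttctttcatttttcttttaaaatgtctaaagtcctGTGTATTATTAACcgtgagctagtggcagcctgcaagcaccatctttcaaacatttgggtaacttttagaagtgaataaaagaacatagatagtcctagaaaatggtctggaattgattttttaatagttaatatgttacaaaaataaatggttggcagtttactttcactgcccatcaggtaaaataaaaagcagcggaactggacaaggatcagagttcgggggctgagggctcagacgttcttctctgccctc
Alb: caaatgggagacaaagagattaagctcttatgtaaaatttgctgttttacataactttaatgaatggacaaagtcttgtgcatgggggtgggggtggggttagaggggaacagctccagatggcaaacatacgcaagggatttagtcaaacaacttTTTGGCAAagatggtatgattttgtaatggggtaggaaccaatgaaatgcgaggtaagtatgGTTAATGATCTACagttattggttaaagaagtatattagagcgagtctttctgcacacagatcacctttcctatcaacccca
Fah: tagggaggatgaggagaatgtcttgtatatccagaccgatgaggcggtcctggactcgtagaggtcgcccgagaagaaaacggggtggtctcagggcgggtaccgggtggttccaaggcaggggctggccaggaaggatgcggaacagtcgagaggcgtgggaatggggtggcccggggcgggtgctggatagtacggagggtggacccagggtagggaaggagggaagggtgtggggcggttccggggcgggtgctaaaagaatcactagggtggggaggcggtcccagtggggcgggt
Adh4: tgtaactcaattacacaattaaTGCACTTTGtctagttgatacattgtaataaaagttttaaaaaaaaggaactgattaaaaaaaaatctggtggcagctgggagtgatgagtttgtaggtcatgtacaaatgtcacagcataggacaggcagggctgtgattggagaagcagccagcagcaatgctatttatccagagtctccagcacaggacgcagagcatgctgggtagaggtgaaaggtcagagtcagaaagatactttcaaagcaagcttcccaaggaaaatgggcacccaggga
Ass1: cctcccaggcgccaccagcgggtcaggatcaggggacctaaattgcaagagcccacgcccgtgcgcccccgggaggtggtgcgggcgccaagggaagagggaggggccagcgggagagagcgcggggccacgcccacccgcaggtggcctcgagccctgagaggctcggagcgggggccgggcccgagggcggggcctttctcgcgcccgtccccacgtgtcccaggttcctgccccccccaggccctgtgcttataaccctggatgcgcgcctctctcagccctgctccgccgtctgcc

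In Alb the HNF1 match began 32 bases before the start site and the C/EBP match 94 bases before it. In Pzp an HNF1 match began 206 bases upstream, and in Adh4 an HNF4 match began 228 bases upstream. Neither Bhmt, which stood among the lowest genes, nor Fah and Ass1 held a match to any motif searched. The HNF1 motif, GTTAAT and ATTAAC with any base between them and up to 2 mismatches, was found in 4 of 24 member promoters (16.7%), those of Alb, G6pc, Gc and Pzp, against 1.36% of all 32851 promoters. The HNF4 motif, CAAAGTCCA with up to 1 mismatch, was found in 4 (16.7%, against 8.47% of all promoters), and the C/EBP motif, TTGCNNAA, in 6 (25.0%, against 10.8%). The exact FOXA motif TGTTTAC was found in 0 of 24 (3.65% of all promoters) and TATAAA in 6 (25.0%, against 13.6%). A match is a run of letters in this window and was not tested as a binding site.

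Most members were far dimmer on the high fat diet array. Of 31 measured members, 27 were at least 2-fold lower and 0 were at least 2-fold higher, where 3.06% of all genes were at least 2-fold lower and 2.63% at least 2-fold higher. With members under background taken at their bound, 26 were at least 2-fold lower, against 2.41% of all genes, and Itih1 was the member that no longer counted. Among 11778 genes whose mean signal reached the median of all probe sets, 3.29% were at least 2-fold lower. That floor was passed by 25 members, most of them only through their normal diet signal. At 4-fold 24 members were lower (0.896% of all genes), and at 16-fold 9 were (0.187% of all genes). The median difference of the members was -3.19, against 0.03 for all genes. With dim signals at their bound, and genes under background on both arrays (among members, Ass1) left out, it was -3.03. The median over all genes treated in that way was 0.005. Members made up 3 of the 10 lowest genes, 12 of the 50 lowest and 21 of the 100 lowest. The 4 members within 2-fold were Fah, Cth, Adh4 and Ass1, the last of which lay under background on both arrays. In RNA from whole tissue, fewer cells of a type and less RNA per cell cannot be told apart. Whether both pools held the same mix of tissues was not tested, and markers of other tissues are given below.

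**Figure D1:**
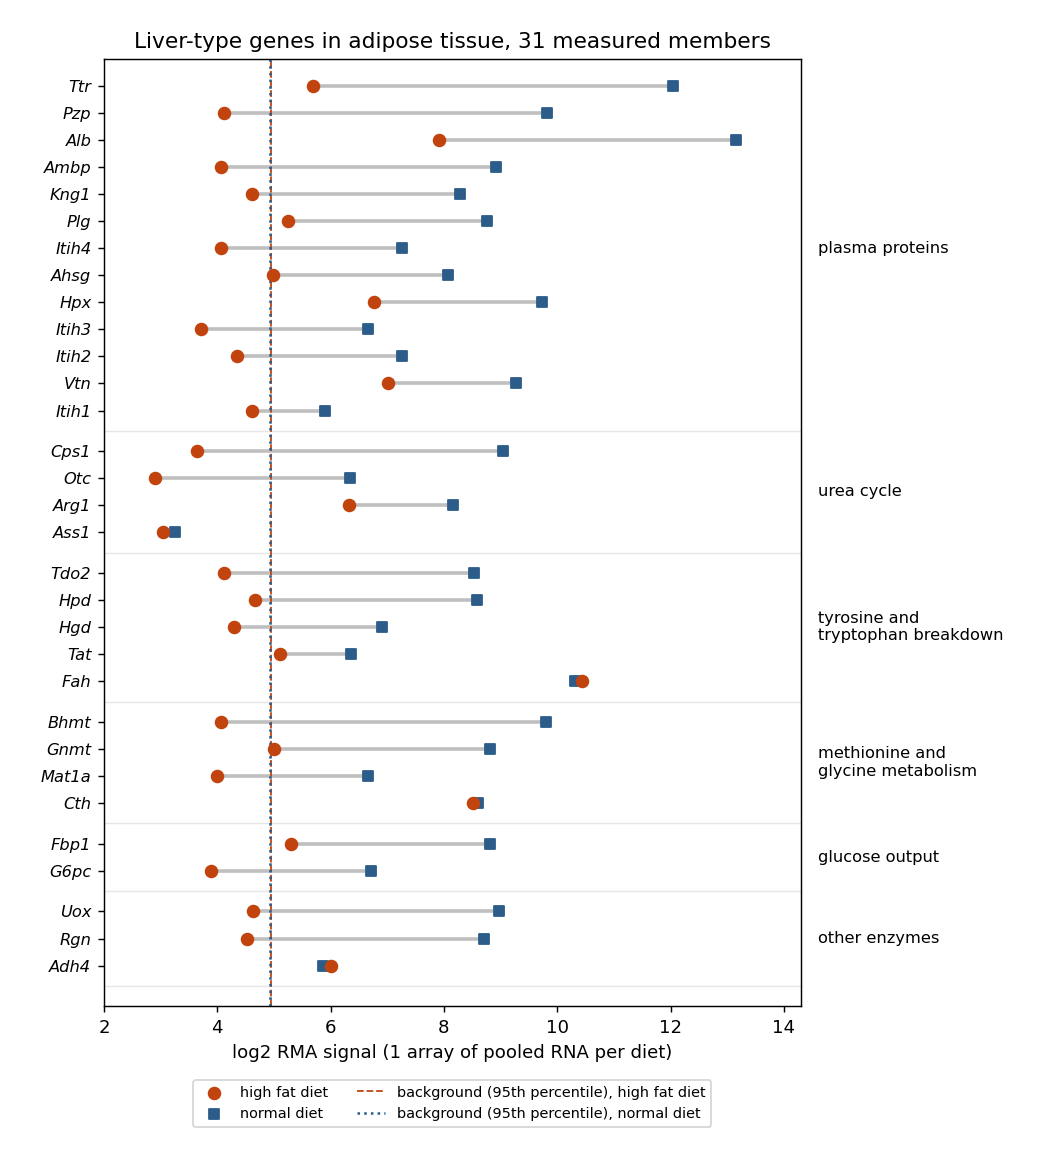
Log2 signal of the 31 measured members on the high fat diet array (circles) and the normal diet array (squares), 1 array of pooled RNA per diet, ordered within each role by their difference, with the 95th percentile of receptor probe sets as vertical lines. On the high fat diet array 13 members lie above the line, against 30 on the normal diet array.

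On the high fat diet array 13 of 31 members were above background, against 30 on the normal diet array. Over all genes the shares were 70.2% on the high fat diet array and 70.8% on the normal diet array. The 17 members above background on the normal diet array only are to be read against 2.69% of all genes with that pattern. The 13 still above background on high fat diet were Alb, Ttr, Ahsg, Hpx, Vtn, Plg, Arg1, Tat, Fah, Gnmt, Cth, Fbp1 and Adh4. Ahsg and Gnmt were just inside the limit, both at 4.99, and Hpd, at 4.66, was the nearest below it. Against the 99th percentile of the receptor probe sets, 5.92 on the high fat diet array, 7 members remained, namely Alb, Hpx, Vtn, Arg1, Fah, Cth and Adh4. Fah, Cth and Adh4 did not differ by 2-fold, so 4 of these 7 were both lower and still clearly detected. Ttr, at 5.68 on the probe set that stands for it, was not among the 7. Its other probe sets had 6.47, 5.51 and 4.22 on the high fat diet array, from above both limits to under both.

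**Figure D2:**
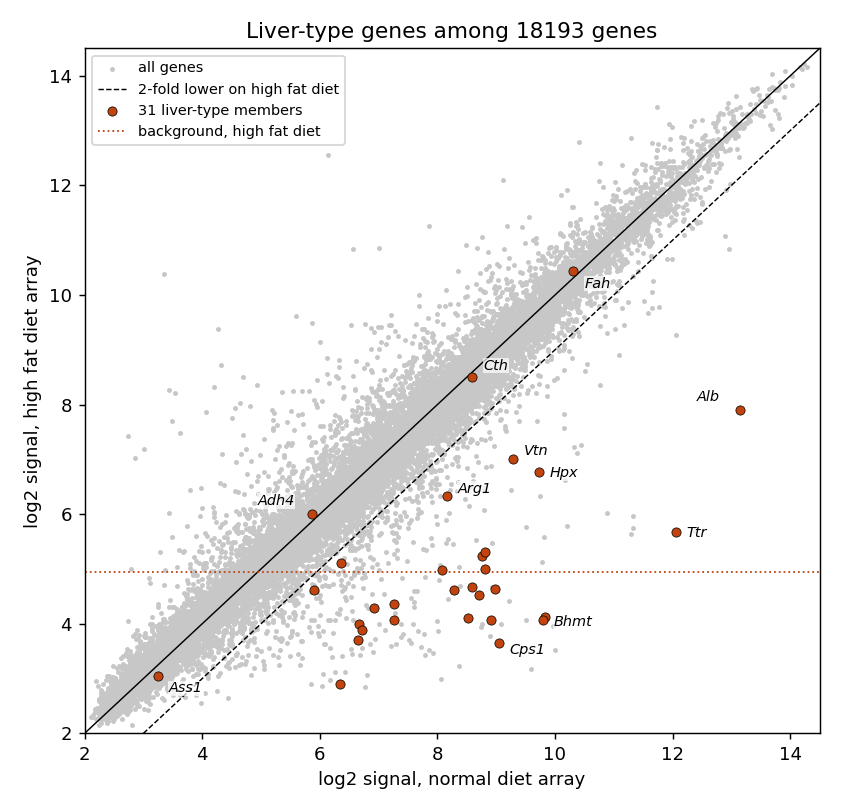
Log2 signal of all 18193 genes (grey) on the high fat diet array (vertical axis) against the normal diet array (horizontal axis), with the 31 liver-type members in red, the line of equality and the 2-fold line. 27 members lie below the 2-fold line, while Fah, Cth, Adh4 and Ass1 lie near equality, Ass1 under background on both arrays.

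All 13 measured plasma protein genes were lower by 2-fold or more on high fat diet, with a median difference of -3.19. Alb, which encodes albumin, the most abundant carrier in plasma, had a log2 signal of 7.91 on the high fat diet array, against 13.15 on the normal diet array. Its signal was thus 37.9-fold lower yet well above background on both arrays. Ttr, the carrier of thyroid hormone and of the retinol-binding protein, had 5.68 on the high fat diet array and 12.05 on the normal diet array. Its difference of -6.37 was the lowest among the members and the 4th lowest of all genes. That difference was only -4.03 on the probe set left when those with names ending in _x_at or _s_at were removed. Hpx, hemopexin, which binds free haem, had 6.77 on the high fat diet array against 9.73 on the normal diet array, 7.78-fold lower.

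Vtn, vitronectin, an adhesion protein of plasma and matrix, had 7.01 on the high fat diet array against 9.28 on the normal diet array, 4.83-fold lower. Plg, which encodes plasminogen, the precursor of the clot-dissolving protease, had 5.24 on the high fat diet array against 8.76 on the normal diet array, 11.5-fold lower. Ahsg, fetuin-A, a mineral-binding protein, had 4.99 on the high fat diet array against 8.08 on the normal diet array, 8.53-fold lower. Vtn was thus clearly detected on high fat diet, whereas Plg and Ahsg lay close to the background limit. Pzp, a broad protease inhibitor of the alpha-2-macroglobulin family, had 4.12 on the high fat diet array and 9.83 on the normal diet array, at least 29.4-fold lower. Kng1, the precursor of kinins, had 4.62 on the high fat diet array and 8.29 on the normal diet array, at least 10.1-fold lower.

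Ambp and the Itih genes act together in plasma and matrix. Ambp encodes the precursor of bikunin, and Itih1, Itih2 and Itih3 encode heavy chains that are joined to bikunin and bind hyaluronan, while Itih4 is a related plasma protein. Ambp had a log2 signal of 4.07 on the high fat diet array and 8.91 on the normal diet array, at least 15.6-fold lower. Itih2 had 4.36 on the high fat diet array and 7.27 on the normal diet array, at least 4.97-fold lower. Itih3 had 3.71 on the high fat diet array and 6.66 on the normal diet array, and Itih4 had 4.07 on the high fat diet array and 7.26 on the normal diet array. All of these were under background on high fat diet, which leaves Itih3 at least 3.26-fold and Itih4 at least 4.95-fold lower. Itih1 was dim on both arrays, at 4.61 on the high fat diet array and 5.90 on the normal diet array. Its measured difference was -1.29, but the bound allows only at least 1.93-fold. Tat and Itih1 were the members nearest to the 2-fold limit from inside, and Ass1 the nearest outside. Itih5, a family member that fat makes, named after its values were seen, had 12.66 on the high fat diet array and 12.53 on the normal diet array.

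In the urea cycle Cps1, the mitochondrial synthase that fixes ammonia as carbamoyl phosphate, was under background on high fat diet. Its log2 signal was 3.65 on the high fat diet array and 9.04 on the normal diet array, at least 17.0-fold lower. Otc, which makes citrulline in the next step, had 2.91 on the high fat diet array and 6.35 on the normal diet array, at least 2.63-fold lower. Arg1, the arginase that releases urea, had 6.33 on the high fat diet array and 8.16 on the normal diet array, 3.57-fold lower, and remained above background. Beside it, all 9 macrophage markers were above background on both arrays and higher on the high fat diet array, 5 of these by 2-fold or more, and the median difference was 1.03. Their linear signals summed to 17567 on the high fat diet array and 9019 on the normal diet array. Cd68, a lysosomal protein of macrophages, had 2.30, Cd14, a coreceptor for bacterial lipopolysaccharide, 0.29 and the scavenger receptor Cd163 0.04. The part of macrophages in the Arg1 signal was not tested. Arg2, the arginase of other tissues, named after its values were seen, was under background on high fat diet and at least 2.70-fold lower.

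Ass1, argininosuccinate synthase, had 1 probe set of its own, and it was under background on both arrays, at 3.04 on the high fat diet array and 3.26 on the normal diet array. A brighter probe set was annotated to both Ass1 and the locus Gm5424 and therefore lay outside the rule. It had 7.39 on the high fat diet array and 8.63 on the normal diet array, a difference of -1.25. The signal of the brighter one cannot be assigned to either locus, and the dim one gives no fold. Of 10 other measured genes of the urea cycle and nitrogen handling, 0 were at least 2-fold lower or higher. They included Asl (-0.63), the lyase that follows Ass1 in the cycle, Gpt2 (-0.61), a mitochondrial alanine transaminase, and Slc25a13 (0.53), a mitochondrial aspartate and glutamate carrier. Their median difference was -0.08, and 9 of the 10 were above background on both arrays.

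Among enzymes of tyrosine and tryptophan breakdown, 4 of 5 members were at least 2-fold lower. Tdo2, the dioxygenase that opens tryptophan breakdown in liver, had 4.11 on the high fat diet array and 8.52 on the normal diet array, at least 11.9-fold lower. Hpd, the dioxygenase of the tyrosine pathway that follows Tat, had 4.66 on the high fat diet array and 8.59 on the normal diet array, at least 12.4-fold lower. Both were under background on high fat diet and bright on the normal diet array. Hgd, which opens the ring of homogentisate, had 4.30 on the high fat diet array and 6.92 on the normal diet array, at least 3.90-fold lower. Its second probe set, under background on both arrays, differed by -0.09. Tat, the tyrosine transaminase that starts the pathway, had 5.10 on the high fat diet array and 6.37 on the normal diet array, 2.40-fold lower and near background.

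Fah, the last enzyme of the same tyrosine pathway, went with none of them. Its log2 signal was 10.43 on the high fat diet array and 10.31 on the normal diet array, a difference of 0.12 that lies within the SD between probe sets. Gstz1, the isomerase between Hgd and Fah, named after its values were seen, had 12.54 on the high fat diet array and 12.75 on the normal diet array. The final steps of the pathway were thus far above background for both diets, and Tat, Hpd and Hgd, which act earlier, were not on high fat diet. Of 9 other measured genes of aromatic amino acid and tryptophan metabolism 1 was at least 2-fold lower, with a median difference of -0.21, and that gene, Kynu, named after its values were seen, was under background on both arrays. Haao (-0.82) and Kmo (-0.70), both of the kynurenine pathway, were the lowest above background, and Pcbd1 (0.66), which recycles the cofactor of phenylalanine hydroxylase, was the highest.

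Methionine and glycine enzymes of liver were also dim on the high fat diet array. Bhmt, which remethylates homocysteine with betaine, had 4.06 on the high fat diet array and 9.79 on the normal diet array, at least 28.7-fold lower. Gnmt, the glycine methyltransferase that uses up S-adenosylmethionine, had 4.99 on the high fat diet array and 8.81 on the normal diet array, 14.1-fold lower. Mat1a, the liver form of the enzyme that makes S-adenosylmethionine, had 4.003 on the high fat diet array and 6.67 on the normal diet array, at least 3.28-fold lower. Cth, the lyase that makes cysteine from cystathionine, had 8.51 on the high fat diet array and 8.60 on the normal diet array. Its difference of -0.09 lay within the SD between probe sets, so Cth, like Fah, did not share the difference of the members around it. A list of 20 other measured genes covered methionine, glycine, serine and histidine metabolism and some other breakdown pathways, such as that of lysine. Of these 20 genes, 8 were at least 2-fold lower as measured and 0 higher, with a median of -0.63. With dim signals at their bound 3 were, namely Ftcd and, named after their values were seen, Chdh and Hal, and 1 of the 8 was under background on both arrays. Aass, of lysine breakdown, and Ftcd, of histidine breakdown, were under background on high fat diet and lower by at least 1.82-fold and 2.99-fold. Gcsh, of the glycine cleavage system, had 0.54.

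G6pc and Fbp1 carry out late steps of glucose output. Fbp1, the fructose bisphosphatase of liver and kidney, had 5.30 on the high fat diet array and 8.81 on the normal diet array, 11.4-fold lower. G6pc, the phosphatase that frees glucose, had 3.89 on the high fat diet array and 6.72 on the normal diet array, at least 3.41-fold lower. Their relatives outside liver differed by less than 2-fold, with 0.25 for G6pc3 and 0.39 for Fbp2. Of 10 other measured genes of glucose output and glycogen, 2 were at least 2-fold lower and 1 was at least 2-fold higher, and the median was -0.52. Slc2a2, the glucose transporter of liver and islets, had -1.17, Pck1, which fat also uses to make glycerol, had -1.13, and Gys2, the liver glycogen synthase, had 1.26.

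Of the remaining enzymes, Uox, urate oxidase, had 4.63 on the high fat diet array and 8.98 on the normal diet array, at least 16.3-fold lower. Rgn, regucalcin, the lactonase of mouse vitamin C synthesis, had 4.52 on the high fat diet array and 8.72 on the normal diet array, at least 13.6-fold lower. Adh4, an alcohol and retinol dehydrogenase, had 6.00 on the high fat diet array and 5.86 on the normal diet array, a difference of 0.14 that lies within the SD between probe sets. It was thus dim but above background for both diets.

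**Figure D3:**
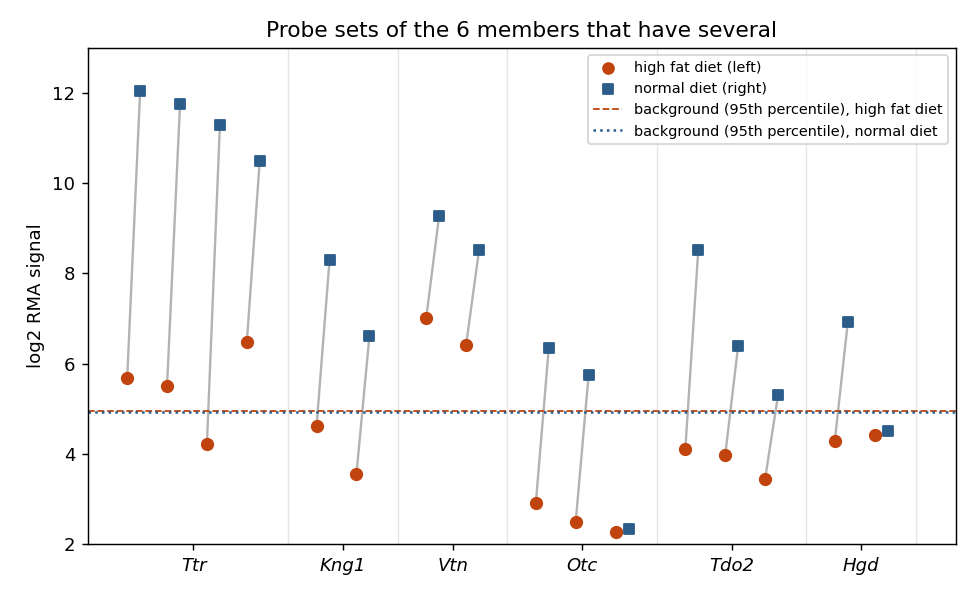
Log2 signal of every probe set of the 6 members that have several, on the high fat diet array (circles, left) and the normal diet array (squares, right), each pair joined, with the background of each array as horizontal lines. The pairs of Ttr, Kng1, Vtn and Tdo2 all slope the same way, while the dimmest pairs of Otc and Hgd lie flat under background.

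For 6 members several probe sets could be compared. The 4 of Ttr differed by -4.03, -6.24, -6.37 and -7.06, so all were lower by over 4-fold but unequal in size. The 3 of Tdo2 differed by -4.41, -2.42 and -1.85, in the order of their normal diet signals of 8.52, 6.39 and 5.30. The 2 of Vtn (-2.27 and -2.10) lay within the SD between probe sets of each other. The 2 of Kng1 had -3.67 and -3.05. For Otc, probe sets with -3.44 and -3.27 stood beside one with -0.07, whose signals of 2.28 on the high fat diet array and 2.35 on the normal diet array lay close to the lowest on the arrays. The gap between probe sets of one member was therefore often wider than the SD of 0.27. That SD came only from probe sets whose mean signal reached the median of all probe sets, while several compared here were dimmer. A gap is also no SD, so the comparison is rough.

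Markers of other tissues were set beside the members. All 8 measured adipocyte markers were above background on both arrays, with high fat diet signals of 9.49 to 14.21 and a median difference of -0.07. One of them, the hormone gene Lep, was 2.11-fold higher, while Slc2a4, the insulin-responsive glucose transporter, had -0.74 and Retn, resistin, -0.28. Of 10 measured hepatocyte transporters and bile acid genes, 5 were at least 2-fold lower and 6 were above background on the normal diet array only. Slc27a2, a fatty acid transporter and acyl-CoA synthetase, was at least 10.8-fold lower and Slc10a1, the bile salt importer, at least 5.39-fold lower, while Abcb4, a phospholipid exporter, had -0.14. Of 12 hepatocyte transcription factors, 8 were under background on both arrays. Hnf4a had 6.22 on the high fat diet array and 7.20 on the normal diet array, a difference of -0.98, while Cebpa, which adipocytes also use, had -0.46 and Creb3l3 -0.03.

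Of the markers of other liver cell types, 1 was at least 2-fold lower. All 5 Kupffer cell markers were above background on both arrays and 0 differed by 2-fold, from -0.32 for Timd4 to 0.74 for Vsig4. Of 5 liver endothelium markers 0 were at least 2-fold lower, with Lyve1 at -0.32, Fcna at -0.26 and Stab2 at 1.08, though tissue macrophages and vessels of fat make some of these too. Of 5 cholangiocyte markers 1 was at least 2-fold lower, the keratin Krt19 (-1.37), which mesothelium also makes. Sox9 had -0.51 and Epcam 0.22.

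Several markers of kidney and most of pancreas were lower beside the members. Of 9 kidney tubule markers, 5 were at least 2-fold lower, 1 of which was under background on both arrays, and 0 were at least 2-fold higher. With dim signals at their bound 3 were at least 2-fold lower. Their median difference was -1.14, or -0.25 with signals under background raised to it. Umod, uromodulin, had 3.72 on the high fat diet array and 6.94 on the normal diet array, at least 3.98-fold lower. Kap, an androgen-regulated protein of the proximal tubule, had 6.44 on the high fat diet array and 9.25 on the normal diet array, while the glucose transporter Slc5a2 had a difference of 0.05. The linear signals of the 9 kidney markers summed to 312.3 on the high fat diet array and 1076 on the normal diet array. Kap was the brightest of the 9 on both arrays and weighs most in these sums, which include signals under background. Of 8 pancreas markers 7 were at least 2-fold lower, Cpb1 by at least 15.5-fold and Cela2a by at least 19.3-fold, while Cela1 had 0.95. Their sums were 2135 on the high fat diet array and 3297 on the normal diet array. Without Cela1 the sums were 260.6 on high fat diet and 2324 on normal diet. Of 5 intestine markers, 3 were under background on both arrays, and Fabp2 and Apoa4 were above it on the normal diet array only, with ratios of at least 1.07 and 1.12. Fbp1, Hpd, Rgn and Cps1 are also made in kidney or intestine, and the part of either tissue in their signals was not tested.

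**Figure D4:**
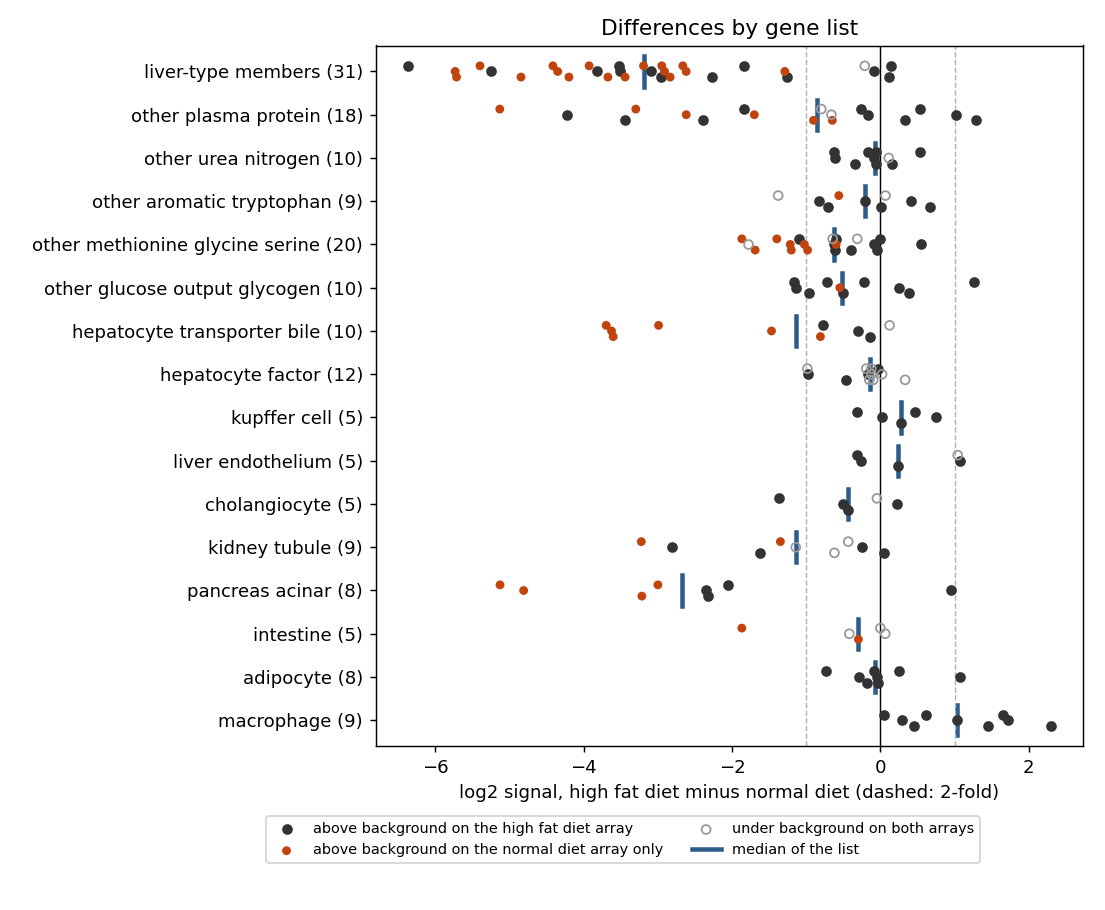
Difference in log2 signal, high fat diet minus normal diet, of each measured gene in the liver-type members and in 15 other lists, with list medians as vertical bars and the number of measured genes in brackets. Filled black points are above background on the high fat diet array, red points on the normal diet array only, and open points on neither array. The median is -3.19 for the members and -2.67 for pancreas, and lies nearer to 0 in the other 14 lists.

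Other plasma protein genes went both ways. Of 18 measured, 8 were at least 2-fold lower, 2 at least 2-fold higher and 8 within 2-fold, with a median difference of -0.85. Mug1, a murinoglobulin protease inhibitor, had 3.23 on the high fat diet array and 8.36 on the normal diet array, at least 10.6-fold lower. Apoh, beta-2-glycoprotein I, had 5.59 on the high fat diet array and 9.81 on the normal diet array, 18.7-fold lower. At the other end Orm2, an acute-phase orosomucoid, was 2.45-fold higher, with 6.60 on the high fat diet array and 5.31 on the normal diet array. Hp, haptoglobin (0.33), and Rbp4, the retinol-binding protein (-0.16), both also made by fat cells and named after their values were seen, had signals of 14.02 and 12.68 on the high fat diet array, against 13.70 and 12.84 on the normal diet array.

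Relatives of members that act outside liver mostly differed by less than 2-fold. Of 9 measured relatives, chosen with earlier results known, 6 were above background on the high fat diet array. Of the 9, 1 was at least 2-fold lower (Arg2) and 0 were higher, with a median difference of -0.05. Ido1 and A2m, named after their values were seen, were under background on both arrays and give no fold. Adh5, the widely made class of alcohol dehydrogenase, had 11.17 on the high fat diet array and 11.38 on the normal diet array. Mtr, which remethylates homocysteine with folate in place of betaine, had 6.23 on the high fat diet array and 6.28 on the normal diet array. Cad, which makes carbamoyl phosphate for pyrimidines, had 6.88 on the high fat diet array and 7.09 on the normal diet array. These 3 differences lay within the SD between probe sets. Bhmt and Cps1, both under background on high fat diet, had measured differences of -5.73 and -5.40, or -4.84 and -4.09 at their bound.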

How the data were processed

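Each of 2 Affymetrix arrays, 1 per diet, held RNA pooled from 3 animals. The deposited values are log2 signals of 45101 probe sets, made by the authors with RMA (version not given in the sources used here), per the submitters' processing notes. Their range shows the log2 scale. RMA equalises the arrays and compresses differences near background, and the number of arrays limits the precision. Names came from GEO's platform annotation, and all 41 member probe sets had their gene ID and an unchanged symbol in RefSeq. Control probe sets (64) were left out, and 932 with several symbols named no gene. Each gene took the values of the probe set brightest on average. No filter on low values was used for counts. Members and lists were chosen with earlier results of these data known. All members are named, and of other lists the 2 lowest and the 1 highest difference above background on at least 1 array, with exceptions stated. Selection and motif search were tested on simulated data. In the test of selection the noise was the same at every signal level, so it does not cover signals near background. Python 3.11.15, pandas 2.3.3 and numpy 2.4.6 were used. With 1 array per diet no test was possible. Alternatives were other probe sets, a floor, other backgrounds, a larger fold and centring.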

Additional observations from a re-analysis of the deposited data

How the results depend on the processing

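The count of members at least 2-fold lower, 27 of 31, lay between 22 and 27 under every alternative run. It was 26 with the probe set highest on the high fat diet array or with signals under background raised to it, 24 at 4-fold, and 22 of 25 with the floor, at the median of all probe sets. The count above background on the high fat diet array, 13, was 7 against the 99th percentile of the receptor probe sets and 8 against the median of all probe sets. The members' median difference, -3.19, was -3.52 with the floor and lay between -3.12 and -2.96 where arrays were centred or dim signals raised. The floor keeps 25 members, most of them only through their normal diet signal. It thus favours members that are lower on high fat diet, so neither value with the floor is a check on the fall. Of 93 values of single members under other probe set choices, 86 moved by less than the SD between probe sets and 7 moved further. From a 2-fold difference 0 changed sign. A member with 1 probe set keeps its value under each choice, so only Ttr, Kng1, Vtn, Otc, Tdo2 and Hgd could move. The 7 belonged to Ttr, Kng1, Tdo2 and Hgd, and Hgd had -0.09 on the probe set highest on the high fat diet array. Of 89 medians of other lists 77 moved by less than that SD. The kidney median was -0.25 with dim signals raised to background and -0.50 with the median over a gene's probe sets. The liver endothelium median, 0.23, was -0.19 with that median and -0.26 with the floor. No paired analysis was possible because each diet has 1 array.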

Other observations

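Genes that lie beside the members on the chromosome were looked at by gene order in RefSeq. Of 52 measured protein-coding genes next to a member that are not members themselves, 3 were lower and 2 were higher by 2-fold or more on high fat diet, with a median difference of -0.004, against 3.06% lower and 2.63% higher over all genes. The lower ones were Fetub, next to Ahsg, Dsg2 (-1.26), next to Ttr, and Bhmt2, next to Bhmt. Fetub, which encodes fetuin-B, a plasma protein made in liver, was under background on high fat diet and at least 3.10-fold lower. Bhmt2 was under background on high fat diet and barely above it on normal diet, so its bound shows no fall and 2 of the 3 remain. The higher ones were Adh6b (1.94), next to Adh4, and Ptger3 (1.03), next to Cth. Over the nearest pair on each side, 105 genes, 6 were lower and 2 higher, and 4 were lower at the bound. The additional ones were Hrg (-1.84), a plasma glycoprotein gene between Ahsg and Kng1, Rgs3 (-1.05), a regulator of G protein signalling near Ambp, and Dmgdh, of choline breakdown, at least 1.94-fold lower. Itih4, Itih3 and Itih1 lie side by side, and the genes at either end of the group, Mustn1 (0.44) and Nek4 (0.16), were within 2-fold. Afp, the fetal relative of albumin next to Alb, was under background on both arrays. All genes of this paragraph other than members were named after their values were seen.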
